A study of Homo sapiens with 24 samples.

Results

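The HCT116 clones labelled knockout for Rap1 were compared with the HCT116 clones labelled wild type. HCT116 is a human colorectal carcinoma line of epithelial origin. The members were the 12 HCT116 arrays among the 24 arrays of the series, taken by their labelled cell line. They covered 3 wild-type clones, numbered 15, 20 and 23, and 3 knockout clones, numbered 10, 21 and 28, with 2 arrays for each clone. All clones derive from one parental line, and the labels give no growth condition or treatment. The question was whether loss of Rap1 alters gene expression within the line. The series also holds HT1080, a fibrosarcoma line with 2 clones of each genotype, which serves below as the line for comparison.

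Rap1 is encoded by TERF2IP and is carried to telomeres by its partner TRF2, as a member of shelterin, the protein complex that coats chromosome ends. In mouse and human cells Rap1 has also been described away from telomeres, at internal chromosomal sites and in the cytoplasm, where it is known as a modulator of NF-kB signalling. HCT116 cells grow with a stabilising mutation of beta-catenin, so that the Wnt pathway is active without added ligand.

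Total RNA had been labelled with biotin and hybridised to Illumina expression arrays of 47323 probes. The deposited value of a probe was its difference from the median of its own cell line, on a log scale taken here as log2. The table therefore held differences between clones and no levels, so that it could not be seen whether a gene, or a marker of colon epithelium, was expressed at all. The 2 arrays of a clone were averaged, and every difference below is the mean of the 3 knockout clones minus the mean of the 3 wild-type clones, with the standard error (SE) of the limma fit over all probes (n = 3 and 3 clones). A probe was said to rise or fall only where its Benjamini-Hochberg adjusted p was below 0.05. No filter on low values was applied, as none was possible.

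TERF2IP, the targeted gene, did not separate the genotypes in HCT116. Its single probe stood at 0.094, -0.27 and 1.33 in wild-type clones 15, 20 and 23, and at -0.22, -0.53 and 0.028 in knockout clones 10, 21 and 28. Wild-type clone 23 was high, while wild-type clone 20 lay below knockout clones 10 and 28. The difference was -0.63 ± 0.34 (limma, adjusted p = 0.609), and an exact two-sided permutation test over the clones gave p = 0.3, where 0.1 was the smallest possible value. Where the probe lies relative to the edit is not given in the sources used here. In HT1080 the same probe differed by -2.61 ± 0.20 (limma, adjusted p = 0.108). Why it did not separate the HCT116 genotypes was not tested. The genotypes are given below as labelled.

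The spread between clones within each genotype was set beside that between arrays. The median SD of a probe was 0.097 between the wild-type clones and 0.101 between the knockout clones, against 0.077 to 0.103 between the 2 arrays of a clone. The former are SDs of means of 2 arrays and the latter of single arrays, so their sizes are not directly comparable. A one-way F test over the 6 clones, which also picks up genotype changes, passed adjusted p 0.05 for 6241 probes (13.2%). The first principal component held 33.4% of the variance and set knockout clones 10 and 28, with scores of 30.6 and 17.2, apart from the other 4 clones. Knockout clone 21 had a score of -9.21, close to wild-type clones 20 and 23 at -9.97 and -11.1. On the third component, with 18.4% of the variance, clone 21 stood apart from all other clones, at 26.2 against -13.1 to 3.40. Over all probes, the values of knockout clones 10 and 28 correlated at 0.25, while clone 21 correlated at -0.11 with clone 10 and at -0.17 with clone 28. These correlations are across probes centred within the line, where values below 0 arise by construction, and they are given as a description.

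This arrangement of the clones marked the large differences. For 40 probes the genotypes did not overlap and the means were at least 2-fold apart. In 26 of them, or 65%, knockout clone 21 was the knockout clone nearest to the wild-type clones, against 34.9% of all 7419 probes without overlap.

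**Figure D1:**
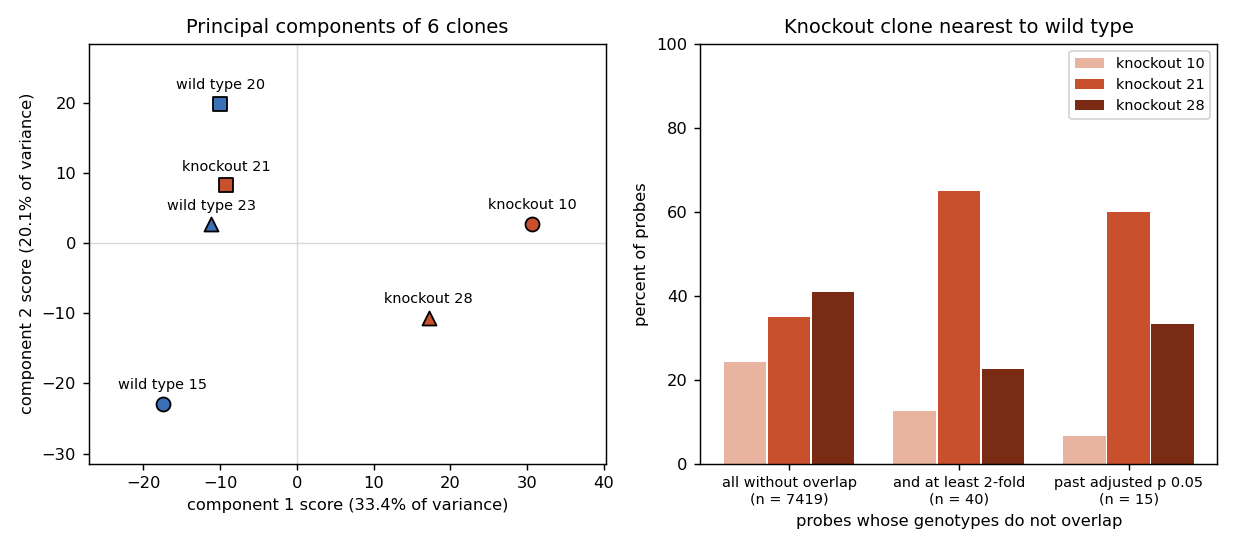
Left, scores of the 6 HCT116 clones on the first and second principal components of all probes, with circles, squares and triangles for the 3 clones of a genotype (blue, wild type; red, knockout). Right, the percent of probes without overlap for which each knockout clone lay nearest to the wild-type clones. Knockout clone 21 lies close to wild-type clones 20 and 23 on component 1 and is the nearest clone for 65% of the probes at least 2-fold apart.

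Few probes passed the test. Of the 47323 probes, 15 (0.0317%) passed at adjusted p 0.05, with 6 higher and 9 lower in the knockout clones, and 3937 had an unadjusted p below 0.05. The 11 of these probes that carry a symbol represent 10 genes. NR4A2, WNT16 and CD163L1 rose, and SUSD2, SLC2A3, PPFIBP1, BMP4, SOX4, TGM2 and HOXB8 fell. Differences of at least 2-fold were measured for 31 higher and 33 lower probes, most of which did not pass. With each array centred on its own median, 8 probes passed, 2 higher and 6 lower. SLC2A3, BMP4 and SOX4 then missed the threshold (adjusted p = 0.0565 for each), as did WNT16 (0.0745), CD163L1 (0.0875) and the second NR4A2 probe, whereas the first NR4A2 probe, SUSD2, PPFIBP1, TGM2 and HOXB8 passed. The call depended on single clones. With wild-type clone 23 left out, 0 probes passed the limma test and 2442 had an unadjusted p below 0.05. The count was 8 on leaving out wild-type clone 15 and 3 on leaving out wild-type clone 20. Among the knockout clones, it was 2 on leaving out clone 10 and 1 on leaving out clone 28, whereas it was 164 on leaving out clone 21.

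All probes together were shifted upward in the knockout clones by a median of 0.056. All 3 knockout clones lay above all 3 wild-type clones for 13.1% of probes and below them for 2.58%. The higher side held 83.5% of the probes without overlap, and with each array centred it held 60.6% (7.26% of probes higher and 4.72% lower). Counts of genes without overlap are therefore read below against the same counts over the 30113 named probes, of which 12.0% were higher and 3.30% lower.

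**Figure D2:**
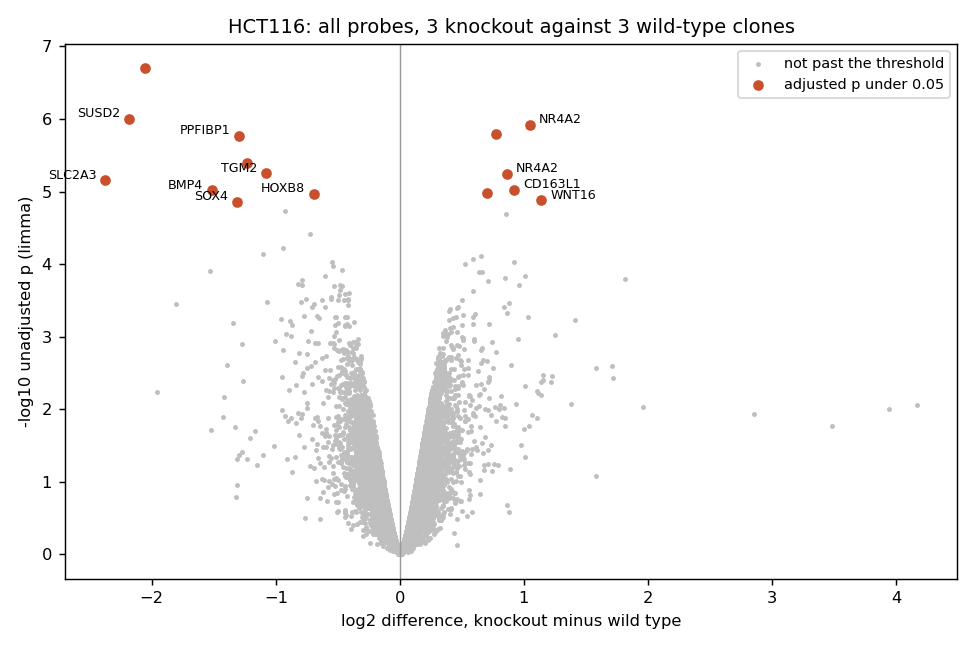
Each point is 1 of the 47323 probes, with the log2 difference between the 3 knockout and the 3 wild-type clones on the horizontal axis and -log10 of the unadjusted limma p on the vertical axis. The 15 probes past the threshold are red, and those with a symbol are named. Probes farther to the right or left than the red ones had larger differences but also a larger spread between clones.

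NR4A2 was the gene with the clearest rise. It encodes an orphan nuclear receptor of the immediate-early class, whose transcription is induced rapidly by cAMP and other signals. The probe ILMN_1782305 read -0.52, -0.43 and -0.32 in wild-type clones 15, 20 and 23, and 0.80, 0.51 and 0.56 in knockout clones 10, 21 and 28. The genotypes did not overlap, and the difference was 1.05 ± 0.099 (2.07-fold; limma, adjusted p = 0.0158). The second probe of the gene rose by 0.86 ± 0.097 (adjusted p = 0.0339). Its 2 closest relatives gave no such difference, with at most 0.077 at either probe of NR4A1 and at most 0.18 at the 3 probes of NR4A3.

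WNT16 encodes a secreted Wnt ligand. It stood at -0.32, -0.58 and -0.87 in wild-type clones 15, 20 and 23 and at 0.75, 0.42 and 0.46 in knockout clones 10, 21 and 28, a rise of 1.14 ± 0.14 without overlap (adjusted p = 0.0433). Its other probe differed by 0.11, so the rise was seen at 1 of 2 probes. CD163L1, a scavenger receptor of the CD163 family, read between -0.43 and -0.35 in the wild-type clones and 0.55, 0.31 and 0.75 in knockout clones 10, 21 and 28. It rose by 0.92 ± 0.11 (adjusted p = 0.0391), and its other probe gave 0.86 ± 0.11 and just missed the threshold (adjusted p = 0.0566).

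SUSD2 and SLC2A3 fell by the largest amounts among the genes that passed. SUSD2, a sushi-domain protein of the cell surface, stood at 1.33, 0.72 and 1.56 in wild-type clones 15, 20 and 23 and at -1.27, -0.91 and -0.76 in knockout clones 10, 21 and 28. The difference of -2.18 ± 0.20 corresponds to a value 4.54-fold lower (adjusted p = 0.0158). SLC2A3, the glucose transporter GLUT3, stood at 1.50, 0.77 and 0.92 in the wild-type clones and at -1.94, -1.22 and -0.77 in the knockout clones, in the same order. It was 5.19-fold lower, by -2.37 ± 0.27 (adjusted p = 0.0367). SLC2A3 has a near-identical copy, SLC2A14, and whether the probe tells them apart was not tested. The other hexose transporters measured did not pass, and SLC2A1, which encodes GLUT1, gave -0.19 ± 0.28.

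BMP4 and SOX4 both fell. BMP4, a secreted ligand of the bone morphogenetic protein family, read 0.79, 0.72 and 0.57 in wild-type clones 15, 20 and 23 and -0.50, -1.31 and -0.64 in knockout clones 10, 21 and 28. It fell by 1.51 (-1.51 ± 0.18, adjusted p = 0.0391). SOX4, a transcription factor with an HMG box, read 0.59, 0.41 and 0.63 in the wild-type clones and -0.75, -0.40 and -1.15 in the knockout clones, and it fell by 1.31 (-1.31 ± 0.16, adjusted p = 0.0433). Clone 21 was thus the lowest of the knockout clones for BMP4 and the highest for SOX4. Each gene was measured by 1 probe, and neither passed with each array centred.

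PPFIBP1 encodes liprin beta-1, an adaptor at cell adhesions and at the cell cortex. Its probe ILMN_1806320 stood between 0.43 and 0.91 in the wild-type clones and between -0.72 and -0.48 in the knockout clones, a difference of -1.30 ± 0.13 (adjusted p = 0.0158). Its other 3 probes gave -0.94, -0.26 and -0.0060. TGM2, the transglutaminase that cross-links proteins, stood between 0.39 and 0.82 against -0.62 and -0.36 and fell by 1.08 (-1.08 ± 0.12, adjusted p = 0.0339), with -0.44 and -0.051 at its other probes. HOXB8, a homeobox transcription factor of the posterior body axis, had the smallest change of the genes that passed, -0.70 ± 0.084 (adjusted p = 0.0391). Its knockout clones lay between -0.33 and -0.30 and its wild-type clones between 0.31 and 0.52.

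Another 4 probes that passed have no symbol in the probe annotation. ILMN_1740900 had the smallest adjusted p of all probes (0.00995), with -2.06 ± 0.16, and ILMN_3224126 gave -1.23 ± 0.13. ILMN_3293694 rose by 0.78 ± 0.075 and ILMN_2308903 by 0.71 ± 0.085. For all 15 probes that passed, no single array of one genotype overlapped with an array of the other. The same arrays had been used to pick these probes, so this describes them and is no added support. The 2 arrays of a clone lay a median of 0.11 and at most 0.40 apart at these probes.

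**Figure D3:**
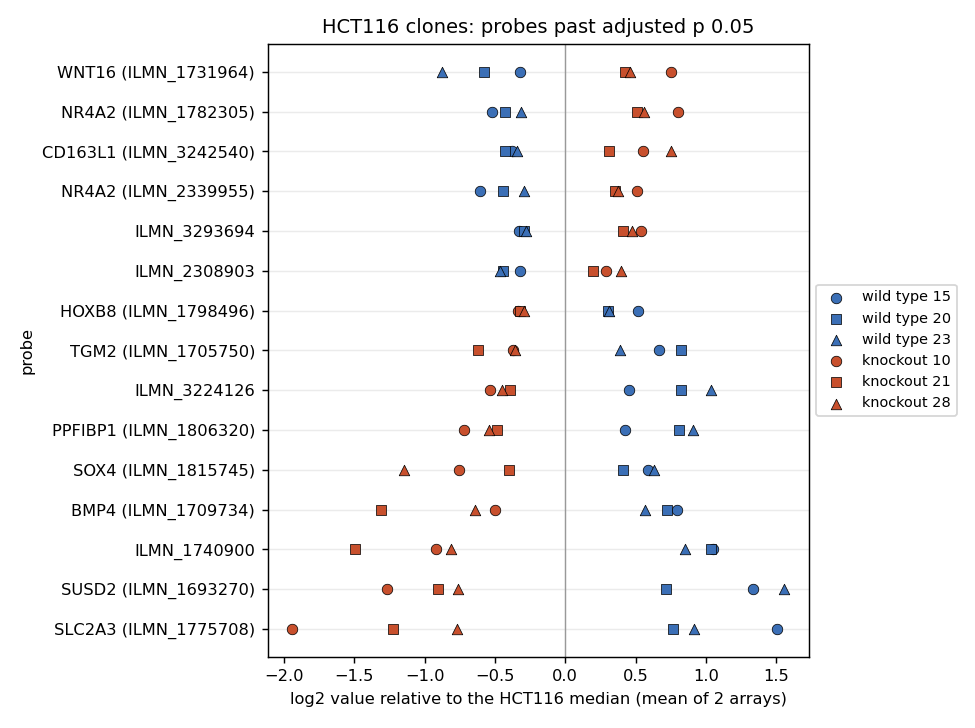
Each symbol is 1 HCT116 clone (mean of 2 arrays) at 1 of the 15 probes with an adjusted p below 0.05, on the log2 scale relative to the median of the line. Blue is wild type and red knockout, with circles, squares and triangles for the 3 clones of a genotype as in the key. The genotypes lie on opposite sides of 0 for every probe shown, and SLC2A3 and SUSD2 are farthest apart. The position of 0 follows by construction from centring on the line's median, as no arrays overlap between the genotypes at these probes.

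The sequences before the start of the lower genes BMP4, PPFIBP1 and SOX4 are shown because these genes fell past the threshold and have an entry in the RefSeq promoter table (GRCh38.p14), in which 5 of the 10 genes that passed were found. Each line gives the 250 bases before a transcription start, 5′ to 3′ on the strand of the gene. Capitals mark the letters CTTTG, the core of the motif bound by the TCF/LEF factors of the Wnt pathway, and TGACG, the half-site bound by cAMP-response factors, on either strand.
BMP4, chr14:53955051-53955300, minus strand: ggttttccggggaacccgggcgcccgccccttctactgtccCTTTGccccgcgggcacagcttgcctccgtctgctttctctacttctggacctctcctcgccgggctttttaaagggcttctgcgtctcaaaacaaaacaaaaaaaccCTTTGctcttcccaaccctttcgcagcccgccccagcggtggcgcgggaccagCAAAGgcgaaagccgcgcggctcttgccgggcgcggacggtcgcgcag
PPFIBP1, chr12:27523956-27524205, plus strand: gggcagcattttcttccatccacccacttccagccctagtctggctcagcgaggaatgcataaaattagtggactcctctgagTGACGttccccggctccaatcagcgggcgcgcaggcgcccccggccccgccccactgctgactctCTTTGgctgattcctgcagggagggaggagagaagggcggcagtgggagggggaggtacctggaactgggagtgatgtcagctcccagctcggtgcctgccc
SOX4, chr6:21593501-21593750, plus strand: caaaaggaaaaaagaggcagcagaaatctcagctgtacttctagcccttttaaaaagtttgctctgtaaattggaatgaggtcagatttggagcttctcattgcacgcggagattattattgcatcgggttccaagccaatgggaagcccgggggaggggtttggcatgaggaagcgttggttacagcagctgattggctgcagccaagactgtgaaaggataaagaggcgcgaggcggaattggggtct
The BMP4 window, which belongs to the farthest upstream of its 3 starts, holds the TCF/LEF core and no half-site, and the windows of its other starts, not shown, hold neither. The PPFIBP1 window holds both, and the SOX4 window holds neither. Such short motifs are common. The core CTTTG was found in 41.2% of 34 windows of the genes that passed or had the largest differences, and in 42.1% of all 35116 windows. The half-site TGACG was found in 38.2% and 21.2%. The longer TCF/LEF motif CTTTGAT, which contains the core, was in none of the 34 windows and in 2.26% of all. The full cAMP response element TGACGTCA, which contains the half-site, was in none and in 1.65%. These windows include several starts of a gene, and a match is a description of the letters alone.

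Among the larger differences that did not pass, some were carried by knockout clones 10 and 28 together. ACSL5, which activates long-chain fatty acids, read 1.73 and 1.66 in those clones, 0.063 in knockout clone 21 and -0.087, -1.43 and -0.19 in wild-type clones 15, 20 and 23 (difference 1.72 ± 0.45, adjusted p = 0.549). KLF4, a transcription factor of differentiating gut epithelium, read 1.33, 0.13 and 1.22 in knockout clones 10, 21 and 28 against -0.50 to -0.12 in the wild-type clones (1.25 ± 0.27). NDRG1, a gene of differentiation and hypoxia, read 1.32, 0.019 and 1.31 in the same order (1.23 ± 0.32). TIMM17B, a subunit of the mitochondrial import channel, read 1.50, 0.12 and 1.44, and CHPT1, a choline phosphotransferase, read 1.43, 0.12 and 1.57. In these 5 genes clones 10 and 28 were high, and clone 21 was near the wild-type clones.

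Other differences were led by a different clone or shared more evenly. PKIB, an inhibitor of protein kinase A, read 2.08, 0.64 and 0.79 in knockout clones 10, 21 and 28 and -0.75 to -0.58 in the wild-type clones (1.81 ± 0.30, adjusted p = 0.220), although its other probe gave 0.077. NT5E, the ecto-enzyme CD73 that forms adenosine, read 0.17, 0.47 and 0.87 against -0.78 to -0.098 (1.03 ± 0.20, adjusted p = 0.314). TCN1, a vitamin B12 carrier, and ANTXR2, an anthrax toxin receptor, differed by 1.10 ± 0.31 and 1.01 ± 0.28, with knockout clone 28 the highest for both at 1.14 and 1.44. HAS3, a hyaluronan synthase, differed by 1.58 ± 0.40 with knockout clone 10 the highest at 1.84. The Y-linked genes RPS4Y1, EIF1AY and KDM5D were also among the 15 largest higher differences, at 4.17 ± 1.27, 1.96 ± 0.61 and 1.22 ± 0.33, and none passed (adjusted p = 0.591 for the first and second, 0.553 for KDM5D). The other probe of EIF1AY gave 3.49 ± 1.21 and overlapped between the genotypes. The Y-linked genes varied between clones of one genotype, and only the differences between genotypes are given for them.

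On the lower side, TNNC1, a troponin C, read 2.23, 0.50 and 1.22 in wild-type clones 15, 20 and 23 and -0.59 to -0.33 in the knockout clones (-1.80 ± 0.34, adjusted p = 0.277). Here the wild-type clones held the spread. MYL2, a myosin light chain, behaved alike, with 1.87, 0.15 and 1.35 against -0.46 to -0.065 (-1.40 ± 0.34). BDNF, a neurotrophin, gave -1.53 ± 0.25 (adjusted p = 0.202) with -1.45, -0.30 and -1.18 in knockout clones 10, 21 and 28, while its other probes ranged from -0.49 to 0.11. AXIN2, a feedback inhibitor of the Wnt pathway, read -1.36 and -2.16 in knockout clones 10 and 21 but -0.038 in clone 28, and gave -1.42 ± 0.41 (adjusted p = 0.580). CRABP2, a carrier of retinoic acid, gave -1.34 ± 0.27, and CD24, a surface glycoprotein, -1.10 ± 0.17 (adjusted p = 0.173). RGS2, an inhibitor of G protein signalling, gave -1.26 ± 0.34, and the uncharacterised LOC105379362 gave -1.52 ± 0.54, of which knockout clone 10 held most at -2.92. Of the 33 genes named so far, 13 had other probes, 24 in all, of which 20 differed in the same direction and 6 by at least 50% as much.

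The nearest probe outside the threshold was that of STING1, the adaptor of cytosolic DNA sensing, which was picked out after its value was seen. It differed by -0.93 ± 0.12 (adjusted p = 0.0548). At an adjusted p of 0.1 in place of 0.05, 17 probes passed, which added STING1 and the other probe of CD163L1.

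Gene lists of pathways were then set against all named probes, of which 66.1% were higher in the knockout clones with a median difference of 0.048 (52.6% and 0.0069 with each array centred). The lists are described by counts and medians, without a test of the list.

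The targets of Wnt/beta-catenin signalling were mostly not past the threshold. Of 35 probes of 23 genes, 24 were higher and 11 lower, with a median of 0.066. BMP4 and SOX4 fell past the threshold and no member rose past it. All knockout clones were higher for 8 probes (22.9%) and lower for 3 (8.57%), against 12.0% and 3.30% of named probes. The lower ones were BMP4, SOX4 and AXIN2, of which AXIN2 did not pass (-1.42 ± 0.41, adjusted p = 0.580). The higher ones belonged to 4 genes, PLAUR, CD44, ASCL2 and EPHB3. PLAUR, the urokinase receptor, was higher without overlap at all 3 of its probes (0.87 ± 0.17, adjusted p = 0.314, 0.66 and 0.41).

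Apart from BMP4, no member of the list of TGF-beta and BMP response genes passed. The list held 44 probes of 25 genes, of which 29 probes were higher and 15 lower, with a median of 0.052. All knockout clones were lower for 5 probes, or 11.4%, and higher for 4, or 9.09%, against 3.30% and 12.0% of named probes. The higher ones belonged to FST, LTBP1, LTBP3 and TGIF1, of which FST, an antagonist of activin, had the largest difference (0.29 ± 0.076). ID2, an inhibitor of helix-loop-helix factors and a direct BMP target, read 0.20, 0.35 and 0.051 in the wild-type clones and -0.055, -1.58 and -0.54 in knockout clones 10, 21 and 28 (-0.93 ± 0.30, adjusted p = 0.591). Knockout clone 21, which had the lowest BMP4, also had the lowest ID2. SMAD6, an inhibitory SMAD, read 0.27, 0.19 and 0.37 against -0.19, -0.61 and -0.25 (-0.63 ± 0.11, adjusted p = 0.267), again lowest in clone 21. A link of ID2 or SMAD6 to BMP4 was not tested. ID3 (-0.64 ± 0.22) and BAMBI (-0.52 ± 0.36), picked out after their values were seen, overlapped between genotypes, as ID3 was lowest in knockout clone 28 at -0.82.

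The targets of YAP and TEAD, which respond to cell tension and density, held the largest share of lower probes without overlap of any list, 7 of 31 probes (22.6% against 3.30% of named probes). None passed the test. ANKRD1 read 1.01, 0.25 and 0.30 in wild-type clones 15, 20 and 23 and -0.25, -0.45 and -0.40 in knockout clones 10, 21 and 28 (-0.89 ± 0.18, adjusted p = 0.327). AXL, a receptor tyrosine kinase, gave -0.65 ± 0.13 (adjusted p = 0.317), and PTPN14, a phosphatase that binds YAP, gave -0.55 ± 0.086 (adjusted p = 0.186). The classical targets CCN1 and CCN2, picked out after their values were seen, were high in wild-type clone 15 (1.11 and 0.97) and overlapped between genotypes. Averaged over the list, wild-type clone 15 stood at 0.25 and the other 5 clones between -0.072 and 0.026, so clone 15 carried much of the difference. NT5E, also a member, went the other way.

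Immediate-early and cAMP-response genes included the 2 NR4A2 probes, which rose, and no other member that passed among 43 probes of 24 genes. All knockout clones were higher for 10 probes (23.3%) and lower for 4 (9.30%), against 12.0% and 3.30% of named probes. Of the lower ones 3 were probes of BDNF. JUNB gave 0.40 ± 0.15. Among 50 probes of protein kinase A subunits and regulators, none passed, 10 were higher (20.0%) and 4 lower (8.00%) without overlap. AKAP12, a scaffold that anchors protein kinase A, was higher without overlap at 4 probes, led by 0.84 ± 0.14 (adjusted p = 0.220), and PKIG, an inhibitor related to PKIB, gave 0.24 ± 0.085. The catalytic subunit gene PRKACA was lower without overlap at 1 probe (-0.078) and gave 0.076 at the other. The regulatory subunit gene PRKAR1A was lower without overlap at 1 probe (-0.15) and gave -0.015 and -0.046 at the others, which overlapped.

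In hyaluronan metabolism no member passed. Of its 25 probes, 7 (28%) were higher and 3 (12%) lower without overlap, against 12.0% and 3.30% of named probes. They belonged to 4 and 2 of the 13 genes. HAS3 was higher at both probes (1.58 and 0.78), HAS2 gave 0.25 ± 0.087 and the hyaluronan receptor CD44 gave 0.37 ± 0.12. CEMIP, which binds hyaluronan and promotes its breakdown, read 0.73, 0.22 and 0.47 in the wild-type clones and -0.69, -1.54 and -0.17 in knockout clones 10, 21 and 28 (-1.28 ± 0.28, adjusted p = 0.429). The hyaluronidase genes went both ways, with HYAL2 lower without overlap at 2 of 3 probes (-0.19 and -0.10) and HYAL3 higher without overlap (0.23 ± 0.095). Among liprins and their partners, PPFIBP1 fell. Of 37 probes, 6 (16.2%) were lower and 2 (5.41%) higher without overlap, against 3.30% and 12.0% of named probes. The lower ones included ARHGEF7 (-0.37 ± 0.074, adjusted p = 0.334), KANK2 (-0.38 ± 0.086) and ERC1, while PPFIBP2 gave 0.34 ± 0.11.

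The ATF4 and amino acid response list had the highest median of all lists, 0.24 (0.20 with each array centred). Of its 54 probes of 37 genes, 49 were higher and 5 lower, and none passed. Only 8 (14.8%) were higher without overlap, close to the 12.0% of named probes. Knockout clone 21 did not share the difference. The mean over the list was 0.43 in knockout clone 10 and 0.18 in clone 28, but -0.12 in clone 21, against -0.17, -0.17 and 0.026 in wild-type clones 15, 20 and 23. DDIT3, the stress factor CHOP, read 1.15, -0.16 and 1.52 in knockout clones 10, 21 and 28 (1.00 ± 0.35), and TRIB3, a pseudokinase induced by it, read 1.10, -0.11 and 0.88 (0.85 ± 0.28). Both were picked out after their values were seen. SLC3A2 and SLC7A11, subunits of the cystine transporter, gave 0.41 ± 0.13 and 0.27 ± 0.083.

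**Figure D4:**
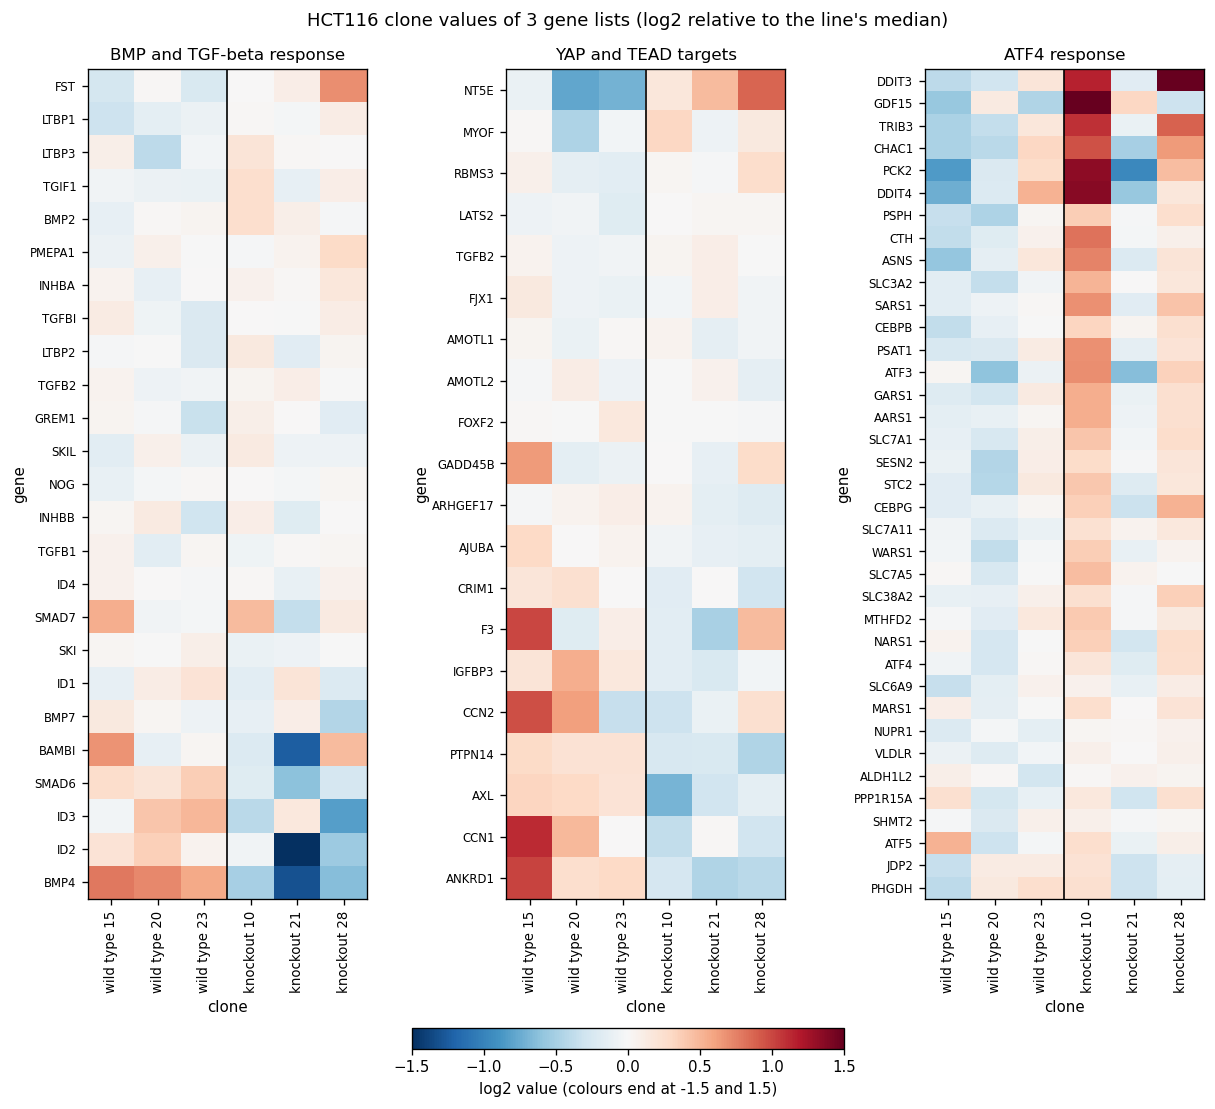
Clone values of the BMP and TGF-beta response genes, the YAP and TEAD targets and the ATF4 response genes, with 1 row for each gene (its probe with the largest difference) and 1 column for each HCT116 clone. Red is above and blue below the median of the line on the log2 scale, and the black line separates the genotypes. BMP4 is blue in all 3 knockout clones, the YAP targets are reddest in wild-type clone 15, and the ATF4 genes are red in knockout clones 10 and 28 and not in clone 21.

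Of the p53 targets, 30 of 44 probes were higher with a median of 0.15, and none passed. Among all named probes 66.1% were higher. The mean over the list was 0.21, 0.12 and -0.040 in knockout clones 10, 21 and 28. It was -0.012, -0.012 and -0.19 in wild-type clones 15, 20 and 23, so the genotypes overlapped and wild-type clone 23 was lowest. No probe had all knockout clones lower, and 9 (20.5%) had all higher, against 3.30% and 12.0% of named probes. CDKN1A, the cell cycle inhibitor p21, read -0.078, -0.14 and -1.07 in wild-type clones 15, 20 and 23 and 0.55, 0.47 and 0.13 in the knockout clones (0.81 ± 0.23, adjusted p = 0.580), so that wild-type clone 23 stood apart. GADD45A gave 0.48 ± 0.12. Among cell death genes CASP4, an inflammatory caspase, gave -0.94 ± 0.22 (adjusted p = 0.456), and the BH3-only genes PMAIP1, BCL2L11 and BBC3 gave 0.52 ± 0.13, 0.34 ± 0.092 and 0.27 ± 0.082.

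Proliferation genes had the lowest medians. It was -0.089 for mitosis and spindle genes, with 10 probes higher and 28 lower, and -0.071 for DNA replication, with 18 higher and 33 lower. No member of either list passed. Lower without overlap were 3 of 38 mitosis probes (7.89%) and 2 of 51 replication probes (3.92%), against 3.30% of named probes. Higher without overlap were 2.63% and 1.96%, against 12.0% of named probes. Averaged over the mitosis list, wild-type clone 15 stood highest at 0.13, knockout clone 28 next at 0.11 and knockout clone 10 lowest at -0.18, so the genotypes overlapped. KIF20A, a motor protein of cytokinesis, gave -0.41 ± 0.091 (adjusted p = 0.434). Heat shock and endoplasmic reticulum chaperones had 5 of 46 probes (10.9%) lower and none higher without overlap, led by HSPA2 at -0.44 ± 0.090 (adjusted p = 0.335).

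Besides SLC2A3, no member of the 64 probes for hexose transport, glycolysis and hypoxia passed, and the median of 0.040 was -0.0017 with each array centred. Without overlap 6 of its probes (9.38%) were higher and 1 (1.56%) lower, against 12.0% and 3.30% of named probes. NDRG1 (1.23) was the farthest apart of the higher ones. ALDOA, a glycolytic aldolase, gave 0.43 ± 0.098 (adjusted p = 0.456). The respiratory chain had 38 of 41 probes higher with a median of 0.091, but 2 (4.88%) without overlap. Its clone means ran from -0.20 in wild-type clone 20 to 0.097 in knockout clone 10. The cytosolic ribosomal proteins had 48 of 58 higher with 2 (3.45%) without overlap.

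Shelterin and telomerase genes stayed near 0. Of 37 probes of 21 genes, 19 were higher and 18 lower, with a median of 0.0083 that became -0.033 with each array centred, and none passed. The probes without overlap were 1 of STN1 (0.31 ± 0.11) and 1 of POT1 (-0.25 ± 0.11). The targets of NF-kB, the pathway in which Rap1 has been described, had 40 of 50 probes higher with a median of 0.066. All knockout clones were higher for 12.0% of them and lower for 4.00%, close to the named probes, and none passed. TNFAIP3, a feedback inhibitor of the pathway, gave 0.27 ± 0.080, and the chemokine CCL2 gave -0.16 ± 0.080. Interferon-stimulated genes had a median of 0.024 (-0.018 with each array centred), and IFIT2 gave -0.46 ± 0.12 (adjusted p = 0.539).

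Lists of epithelial and other cell identity showed small differences. Intestinal transcription factors and absorptive markers had 9 of 33 probes (27.3%) higher and none lower without overlap. Named probes gave 12.0% and 3.30%. Apart from KLF4 the sizes of these intestinal differences were at most 0.29, as for CEACAM6 (0.29 ± 0.11) and villin (VIL1, 0.22 ± 0.084). Markers of colon epithelium were higher for 13 of 14 probes with a median of 0.098. Their mean in wild-type clone 15 (0.077) lay above those in knockout clones 21 (-0.081) and 28 (0.00091). Markers of fibroblasts had a median of 0.047, those of retinal pigment epithelium 0.080 and those of blood 0.11. Of the blood probes 5 of 11 were higher without overlap, against 12.0% of named probes, led by CD68 at 0.35 ± 0.093. With each array centred, 2 of 11 blood probes and 5 of 33 intestinal probes were higher without overlap, against 6.64% of named probes. Smooth muscle and contractile genes went both ways, with 22 of 41 probes higher and 19 lower, and 5 higher (12.2%) and 4 lower (9.76%) without overlap. The lower ones were TNNC1, MYL9 at -0.26 ± 0.10, CALD1 at -0.14 ± 0.076 and 1 probe of TAGLN at -0.54 ± 0.12 (adjusted p = 0.429), while another TAGLN probe was higher at 0.25 ± 0.073 and the third overlapped. The remaining higher ones, CNN1, CNN2, DES and TES, differed by at most 0.13.

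**Figure D5:**
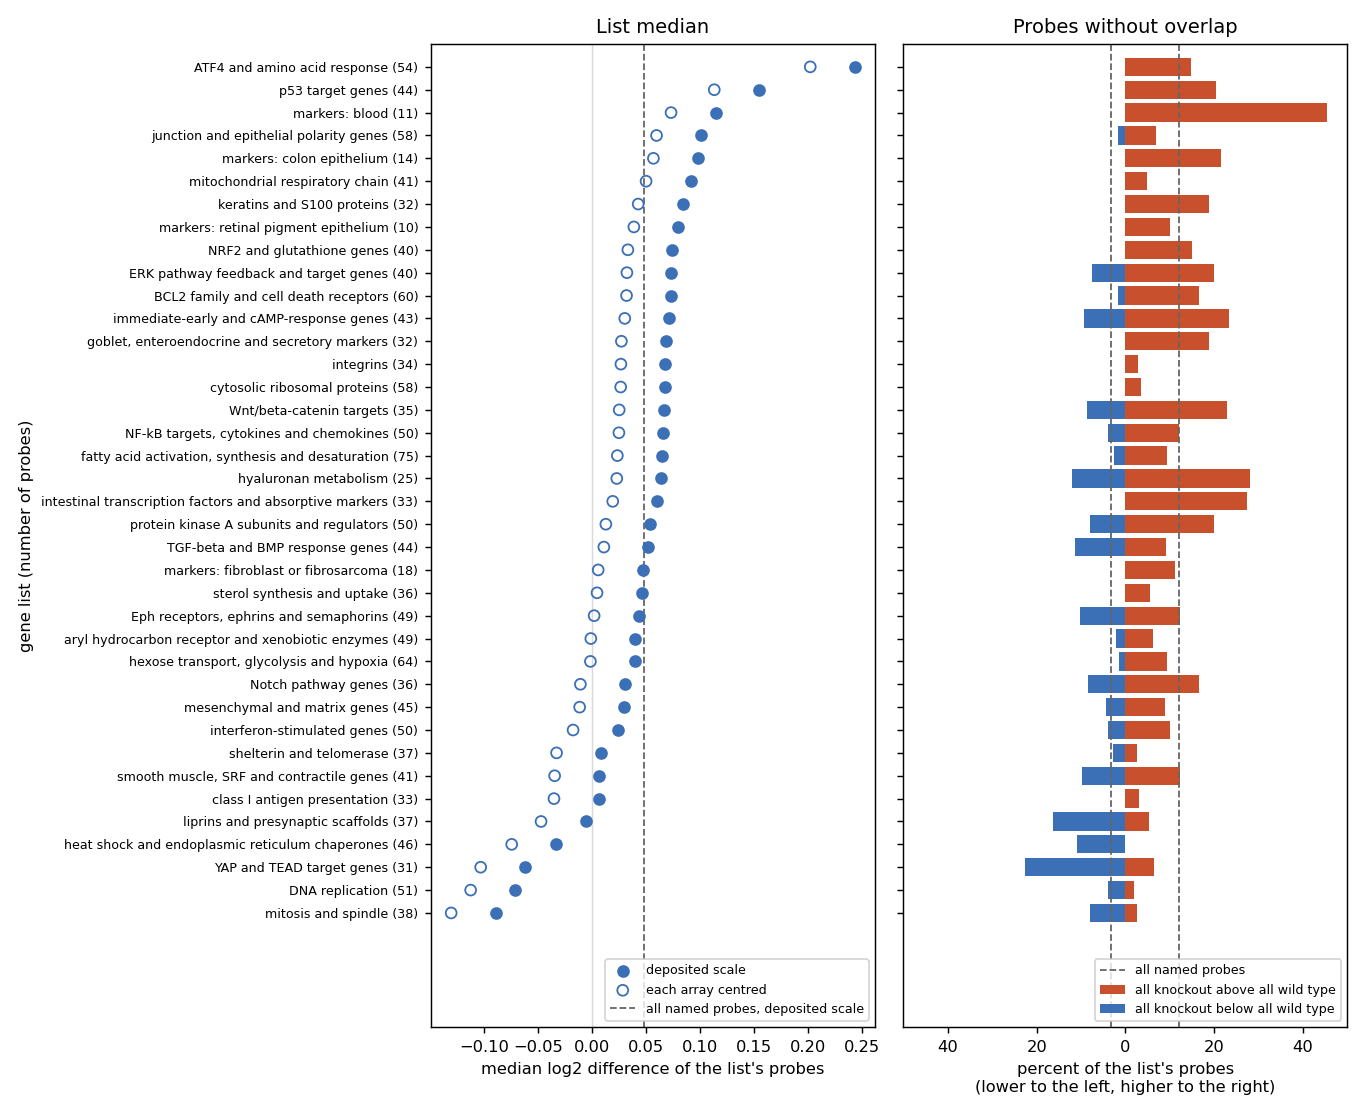
Left, the median log2 difference of the probes of each gene list on the deposited scale (filled) and with each array centred on its median (open), with the median of all named probes as a dashed line. Right, the percent of the probes of a list for which all knockout clones lay above (red) or below (blue) all wild-type clones, with the shares of all named probes (12.0% and 3.30%) as dashed lines. ATF4 genes have the highest median, mitosis genes the lowest, and the YAP and TEAD targets the largest lower share.

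By chromosome, medians were small. With each array centred, the median of the probes of chromosomes 1 to 22 and X lay between -0.024 and 0.032 in every clone. The difference between genotypes lay between -0.0037 and 0.023, the highest for chromosome 18, and was 0.045 for the 142 probes of chromosome Y. With each array centred, 12.0% of the probes of chromosome Y were higher without overlap, against 5.36% to 8.28% on the others.

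The change in HCT116 was set against that in HT1080 by the interaction of genotype and line. It passed for 14 of 47323 probes (0.0296%), which belong to 10 genes, and NR4A2 was the 1 gene among them that had also passed in HCT116 alone. It rose by 1.05 in HCT116 and was lower by -0.90 ± 0.13 in HT1080 (n = 2 and 2 clones), which alone did not pass (adjusted p = 0.743). The difference between the lines was 1.95 ± 0.17 (adjusted p = 0.00203). SUSD2 differed by -0.057 in HT1080 and BMP4 by 0.073, and the difference between the lines did not pass for either (adjusted p = 0.0933 and 0.206). SOX4 gave -1.12 ± 0.57 in HT1080, close to its value in HCT116, and the difference between the lines was -0.19 ± 0.58. TGM2, WNT16 and CD163L1 gave -0.12, -0.097 and 0.16 in HT1080, PPFIBP1 -0.52, HOXB8 -0.42 and SLC2A3 -0.37, and for none of them did the difference between the lines pass. TERF2IP differed by -2.61 in HT1080 against -0.63 in HCT116, a difference of 1.98 that did not pass (adjusted p = 0.478).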

How the data were processed

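The deposited values are log2 differences as the series matrix gives them. They have both signs, and the authors had centred every probe within each cell line, as its median there was at most 5e-07. The normalization, the background correction and the base of the log are not given in the sources used here. Base 2 was assumed, and another base would rescale all differences alike and leave the tests as they are. The number of arrays and clones limits the precision. Per the labels' protocols, RNA was taken with QIAGEN RNeasy columns and labelled with an Ambion MessageAmp kit. Of the 47323 probes, 30113 carried 1 gene symbol, 8 several and 17202 none, and symbols were updated by Entrez identifier with the RefSeq table of GRCh38.p14 for 30074 of them.

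The 2 arrays of a clone were averaged, and the clone was the replicate. Whether the arrays came from separate cultures is not given in the sources used here, so p-values measure the spread between these clones. Genotypes were compared with limma 3.58.1 (lmFit and eBayes, two-sided, R 4.3.3) over all probes with Benjamini-Hochberg adjustment. The interaction of genotype with cell line was fitted on the HCT116 and HT1080 clones. An exact permutation test over clones was added for TERF2IP (scipy 1.17.1). The fit was tested on simulated data. Genes named were TERF2IP, every gene that passed, the 15 higher and 15 lower with the largest differences among probes without overlap, up to 4 members per list without overlap, and up to 10 genes of the interaction. Others are said to be picked out after their values were seen. The members, the 34 gene lists and 4 marker lists and the naming rule were chosen with earlier results of these data known. Alternatives covered scaling, the array used, the unit tested, the prior, a block for array number and leaving out clones.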

Additional observations from a re-analysis of the deposited data

Results flagged for a closer look

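The change between genotypes differed between HCT116 and HT1080, by the interaction test, for 10 genes named by the smallest p (limma, adjusted p from 0.00119 to 0.00800). NR4A2 differed by 1.95 between the lines, with 1.05 in HCT116, where it passed, and -0.90 in HT1080. For the other 9 genes the change lay mainly in HT1080. In HT1080 alone CDCP1 and PTGR1 passed (limma, adjusted p = 0.0175 for each), and the rest of the 9 did not (0.106 to 0.177). The HCT116 change minus the HT1080 change was 1.58 for ACOT1, 1.39 for ACOT2, 2.47 for TMSB15B and 0.987 for SIGLEC14. It was -3.23 for CDCP1, -3.56 for ATP9A, -2.56 for NELL2, -2.11 for PTGR1 and -1.35 for RAPGEF5. In HCT116 alone these 9 genes differed between -0.11 for ATP9A and 0.42 for CDCP1, and none passed. ACOT1 and ACOT2 are near-identical copies, and whether their probes tell them apart was not tested. HT1080 had 2 clones of each genotype, and without wild-type clone 9 of HT1080 the interaction passed for 115 probes in place of 14.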

How the results depend on the processing

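The count of 15 probes was 25 with first arrays alone, 8 with each array centred and 118 among probes that differ between clones, a filter that also picks up genotype changes. With 12 arrays and the clone as a random block 281 passed, and with the array number as a replicate block as well 221 passed, the same 15 among them each time. As genes, 3 passed with the most variable probe and 0 with the mean of probes (limma; 1690 had an unadjusted p below 0.05). Leaving out each clone in turn gave 0 to 164 probes, and leaving out knockout clone 21 and wild-type clone 23 together gave 61. Of the 15 calls, SUSD2, PPFIBP1 and the first NR4A2 probe were each lost under 5 of 18 alternatives and SOX4 and HOXB8 under 11. The share of probes with all knockout clones higher, 13.1%, was 8.07% with first arrays, 7.26% centred, 7.16% centred and scaled, 7.23% after the filter, 17.1% to 25.7% without each clone and 25.8% without both. The share lower, 2.58%, was 4.72%, 4.74% and 7.16% with the same scalings and filter, 4.35% to 7.09% without each clone and 11.7% without both. With fewer clones overlap is rarer by construction. TERF2IP ranged from -0.95 to -0.16 on leaving out a clone and was -0.011 without both knockout clone 21 and wild-type clone 23. The interaction count of 14 was 9 for gene means and 12 to 115 on leaving out a clone. The causes were not tested. The named probes kept their direction in all 658 comparisons run, with 116 calls lost and 90 gained, and 109 of 532 list medians moved by more than the spread between clones. Whether array numbers pair samples across clones is not given in the sources used here. No signal over background was available, which limits every value of a dim probe.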

Other observations

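Several gene groups not described above held single members without overlap between the genotypes, and none of their members passed the limma test. Among Notch pathway genes, LFNG, a glycosyltransferase that modifies Notch receptors, differed by -0.50 ± 0.10 (adjusted p = 0.335), while the target HEY1 gave 0.33 ± 0.11 and the coactivator MAML3 0.32 ± 0.089. Of the ERK pathway genes, which include PLAUR given above, DUSP5 gave -0.33 ± 0.098 and ETV4 -0.26 ± 0.092, and DUSP4 gave 0.27 ± 0.11. The calcium-binding proteins S100A11 and S100A16 gave 0.65 ± 0.19 and 0.51 ± 0.11. TWIST1, a mesenchymal transcription factor, gave -0.82 ± 0.26, with wild-type clone 20 at 1.36 above all others. SEMA3B, a secreted guidance molecule, gave -0.54 ± 0.14, and the ephrin receptor EPHA1 gave 0.47 ± 0.16. OVOL2, a repressor of mesenchymal genes, gave -0.43 ± 0.12.

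Antioxidant genes of the NRF2 list had 6 of 40 probes (15%) higher without overlap, close to the 12.0% of named probes. None was lower without overlap, against 3.30% of named probes. SRXN1 gave 0.29 ± 0.086 and GCLC 0.28 ± 0.095. The lists of sterol synthesis (median 0.046), fatty acid metabolism (0.065), integrins (0.068), junction and polarity genes (0.10), secretory markers (0.068) and xenobiotic enzymes (0.040) lay near the median of all named probes or up to 0.10. Antigen presentation had a median of 0.0059, and HLA-B ranged from 0.51 in knockout clone 10 to -1.21 in knockout clone 28.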
